A study of Mus musculus with 18 samples.

Results

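Input small RNA of C2C12 cells was compared between cells after 7 days of myogenic differentiation and undifferentiated cells. C2C12 is an established mouse myoblast line whose cells leave the cell cycle and fuse into multinucleate myotubes when serum is lowered. The series trapped miRNAs with a bait RNA, the 3'UTR of MRTF-A, a coactivator of serum response factor, and sequenced 18 libraries in 6 groups of 3. The 6 libraries described here are the inputs, that is RNA from the cell extract before the bait was used, and all names of the table were taken: 3 libraries came from differentiated cells, kept for 7 days in medium with 2% horse serum (HS), and 3 from undifferentiated cells. Per the labels both states were grown in medium with 10% fetal calf serum (FCS). The labels call the tissue of both states myoblasts and give undifferentiated samples the same serum text, and the state comes from the titles and the differentiation label. Nothing in them ties the 3 libraries of a state to separate cultures, and the p-values here therefore reflect the spread among libraries, possibly a technical one. The letters A, B and C stand for the suffixes of the columns of a state. The labels do not say whether the same suffix in both states marks a pair, and no pairing was assumed.

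A miRNA is cut from a hairpin precursor whose 5p and 3p arms can each give a mature RNA, and 1 arm is usually kept far more than the other. The mature RNA guides Argonaute to messenger RNAs through its seed, bases 2 to 8, so miRNAs with the same seed can share targets, and hairpins that lie close together are often transcribed as a cluster. MyomiRs, the miRNAs of striated muscle, include miR-1, miR-133, miR-206, miR-208b, miR-499 and miR-486. They are known to be induced by myogenic transcription factors and to restrain genes of proliferation and of other tissues.

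The mature sequences below are those of RefSeq on GRCm38.p6, in which 260 of the tested names had a match. Each is written 5′ to 3′ with the seed in capitals. The first set holds 4 of the myomiRs, shown because they rose from few or no reads.
miR-206-3p: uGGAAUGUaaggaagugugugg
miR-133b-3p: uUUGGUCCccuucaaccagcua
miR-499-5p: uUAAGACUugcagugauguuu
miR-208b-3p: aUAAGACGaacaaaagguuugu
miR-206-3p and miR-133b-3p come from neighbouring hairpins on the plus strand, at chr1:20679055-20679076 and chr1:20682834-20682855. miR-499-5p lies at chr2:155622893-155622913 on the plus strand, within the muscle myosin gene Myh7b, and miR-208b-3p at chr14:54975710-54975731 on the minus strand, within Myh7. The second set holds names outside the myomiRs with some of the largest changes, the first 3 of them rises and the other 3 falls.
miR-128-3p: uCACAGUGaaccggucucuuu
miR-1843a-5p: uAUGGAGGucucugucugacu
miR-362-3p: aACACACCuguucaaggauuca
miR-7a-5p: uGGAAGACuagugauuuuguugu
miR-27a-5p: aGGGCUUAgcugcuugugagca
miR-129-5p: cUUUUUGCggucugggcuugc
The third set holds the seed families whose members were called in opposite directions in the main fit, first the seed CCCUGAG with 3 names and then the seed AUUGCAC with 4.
miR-125a-5p: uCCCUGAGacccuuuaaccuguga
miR-351-5p: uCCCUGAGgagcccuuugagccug
miR-125b-5p: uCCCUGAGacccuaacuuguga
miR-363-3p: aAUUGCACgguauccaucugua
miR-92a-3p: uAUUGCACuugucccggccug
miR-92b-3p: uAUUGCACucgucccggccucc
miR-25-3p: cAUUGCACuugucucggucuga
The last set gives the other arms of the miR-125a and miR-27a hairpins, whose arms moved apart. miR-125a-3p lies at chr17:17830855-17830876 and miR-27a-3p at chr8:84208727-84208747, both on the plus strand.
miR-125a-3p: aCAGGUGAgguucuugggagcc
miR-27a-3p: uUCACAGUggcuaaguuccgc

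Of 2042 names in the table, 1908 of mouse and the rest of human, 1415 had a read in an input and 627 had none. Differentiated libraries A, B and C held 400865, 462847 and 314110 recovered reads, and undifferentiated libraries A, B and C held 294112, 351760 and 860828. Levels are given as CPM, reads scaled to the library total times a TMM factor of the 6 inputs, so that 1 read was worth 1.30 to 3.32 CPM. Fold changes are log2 differences of differentiated minus undifferentiated cells in CPM + 10, which understates the changes of low names. The error beside a fold change is its standard error, and an adjusted p is from limma with Benjamini-Hochberg adjustment over every name tested. Some libraries stood apart for single names. Undifferentiated library B was more than 1 log2 unit below both others for 14 names and above both for 9, and differentiated library C was below both others for 10 names, among them miR-125a-5p and miR-351-5p. In undifferentiated library A 8 names were above both others, among them miR-133a-3p and miR-133b-3p.

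The names tested held 99.7% of the input reads. At an adjusted p under 0.05, 90 of them (29.9%) rose and 86 (28.6%) fell, so that 58.5% were called in either direction. The median log2 fold change over all of them was -0.06. Changes of more than 1 log2 unit were called up for 77 names and down for 68, and of more than 2 units for 30 and 17. The 3 differentiated libraries did not overlap the 3 undifferentiated ones for 191 names (63.5%), and 171 of the 176 called names were among these. The split depended on the scaling. With the deposited scaling, whose factors were taken over eluates and inputs together, 52 names (17.3%) rose and 45.5% of the names fell, 62.8% in all, and the median moved to -0.62. DESeq2 called 28.2% up and 28.6% down (56.8% in all), and edgeR 28.6% up and 30.6% down (59.1% in all). All 6 scalings and tests called 52 names (17.3%) up and 82 names (27.2%) down, and 130 names were called in all 6 fits that left out 1 library. In the authors' deposited table rises numbered 35 and falls 117. Of these, 114 had a call of the same sign here, 0 had the opposite sign, and 20 were not tested here.

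**Figure D1:**
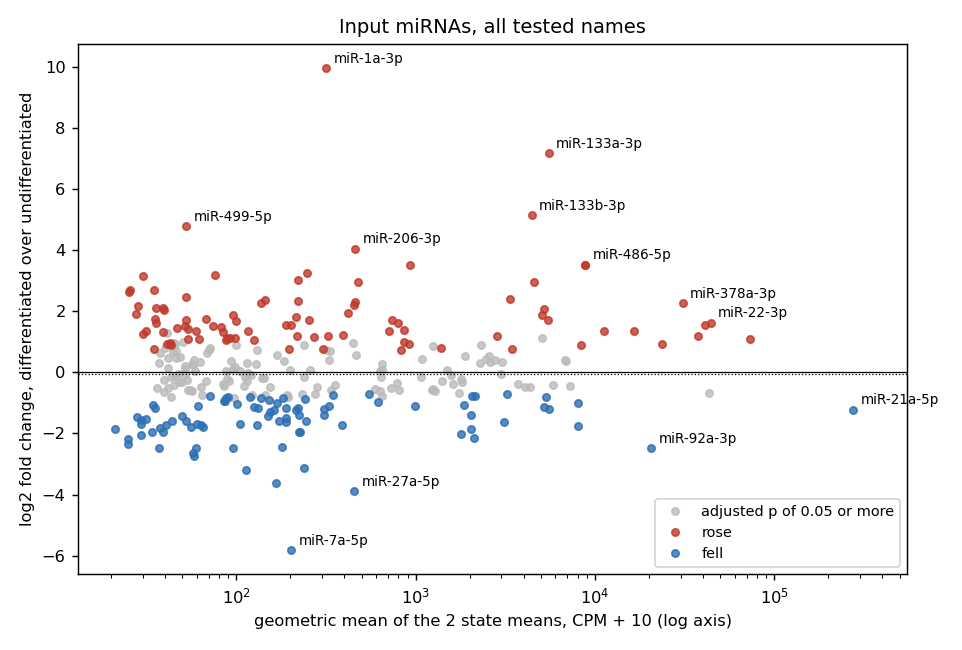
Log2 fold change of differentiated over undifferentiated input (y axis) against the mean level in CPM + 10 (x axis, log axis) for all tested names, each point 1 name, coloured by whether it rose, fell or did not pass the test. miR-1a-3p at 9.95 and miR-7a-5p at -5.81 lie at the extremes, and the highest level is that of miR-21a-5p.

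The most abundant miRNA of both states, miR-21a-5p, known for its high levels in proliferating cells, fell. It took 18.4, 16.3 and 15.3% of the reads in differentiated libraries A, B and C, against 38.5, 41.1 and 53.3% in undifferentiated libraries A, B and C. Its level was 176883 ± 14952 CPM in differentiated cells and 429734 ± 149549 CPM in undifferentiated cells (SD, n = 3 each), a log2 fold change of -1.23 ± 0.28 with adjusted p = 0.00485. In bulk RNA such as this, fewer cells that express a miRNA and less of it in each cell cannot be told apart. The 5 most abundant names of differentiated cells were, besides miR-21a-5p, miR-6244, miR-22-3p, miR-6241 and miR-378a-3p. In undifferentiated cells let-7f-5p and miR-92a-3p stood in the places of miR-22-3p and miR-378a-3p. miR-22-3p, a miRNA known for its role in heart muscle, took 7.27 ± 0.702% of the reads of differentiated cells and 2.65 ± 0.187% of undifferentiated cells (SD, n = 3 each). It rose by 1.62 ± 0.23 (adjusted p = 0.000313). miR-378a-3p, which is encoded within the metabolic coactivator gene Ppargc1b, had 63961, 71537 and 66673 CPM in differentiated libraries, against 14638, 12177 and 15664 CPM in undifferentiated libraries. Its rise was 2.26 ± 0.22 (adjusted p = 4.70e-05). In miR-6244 and miR-6241 undifferentiated library C was the lowest of the 6. miR-6244 had 74426, 119858 and 115358 CPM in differentiated libraries, against 68111, 59985 and 26119.9 CPM in undifferentiated libraries (1.09 ± 0.38, adjusted p = 0.0328). Without undifferentiated library C it was 0.59 and did not pass, and it did not pass with the deposited scaling either (0.41). miR-6241 was at 1.55 ± 0.38 (adjusted p = 0.00637), and at 0.87 with the deposited scaling, where it did not pass.

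**Figure D2:**
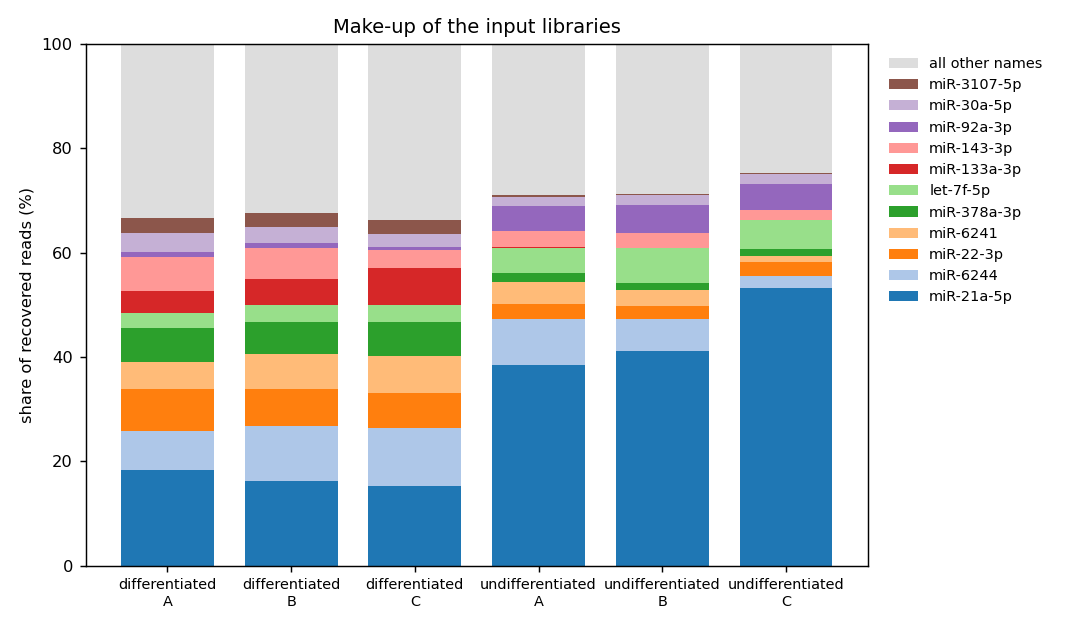
Share of recovered reads in percent (y axis) taken by the most abundant names (one colour each) and by all other names (grey) in differentiated libraries A, B and C and undifferentiated libraries A, B and C (x axis). The segment of miR-21a-5p is 15.3 to 18.4% in differentiated libraries and 38.5 to 53.3% in undifferentiated libraries.

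Reads were less concentrated on the leading names in differentiated cells, a difference that turned round when miR-21a-5p was left out. The 10 most abundant names of each library took 66.3 ± 0.504% of its reads in differentiated cells and 73.8 ± 2.45% in undifferentiated cells (SD, n = 3 each), a difference of -7.56 percentage points (exact permutation test, two-sided p = 0.1, the smallest that 3 against 3 libraries allow). Leaving miR-21a-5p out, the same shares were 62.8% and 55.0%, a difference of 7.81 points. MyomiRs together took 9.55, 10.6 and 14.2% of the reads in differentiated libraries A, B and C, against 0.820, 0.268 and 0.297% in undifferentiated libraries A, B and C. The difference of 10.997 points again had the smallest exact permutation p of 0.1, two-sided. These shares leave out miR-3107-5p, the same mature RNA as miR-486-5p under another name. It took 3.00, 2.67 and 2.68% of the reads in differentiated libraries A, B and C. In undifferentiated libraries A, B and C it took 0.439, 0.229 and 0.200%.

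Each of the 7 tested myomiRs rose under all 6 scalings and tests, beside 17.3% of all names. The median was 4.78 beside -0.06 over all names tested. It is the value of miR-499-5p, which the pseudocount holds down, and with edgeR the median was 6.79. The list holds 9 names, of which 8 had a read in an input. miR-1a-3p, miR-499-5p and miR-208b-3p passed the filter through differentiated libraries alone. Their 0 reads leave no spread in the other state, which limits what their p-values measure. miR-1a-3p, which promotes differentiation of muscle cells, had 9571, 8557 and 11830.3 CPM in differentiated libraries A, B and C, and 0 reads in each undifferentiated library. Counted against 3 reads per undifferentiated library, a floor that covers counting error only, it was at least 1494-fold higher in differentiated cells (9.95 ± 0.25, adjusted p = 1.70e-09). miR-133a-3p, made from the same transcripts as miR-1a, had 41120.5, 57622 and 74095 CPM in differentiated libraries, against 1063, 144.7 and 352 CPM in undifferentiated libraries. The lowest differentiated library was above the highest undifferentiated one by a wide margin, and the rise was 7.16 ± 0.59 (adjusted p = 1.37e-05). It was 7.87 without undifferentiated library A and 6.37 without undifferentiated library B.

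miR-133b-3p, which differs little from miR-133a-3p so that a read of one may be counted for the other, had 13219.7, 23113 and 31763 CPM in differentiated libraries, against 1791, 202 and 578 CPM in undifferentiated libraries. Its rise of 5.13 ± 0.66 (adjusted p = 0.00018) was 5.90 without undifferentiated library A and 4.26 without undifferentiated library B. The undifferentiated libraries kept the same order for both miR-133 names, with A highest and B lowest. Its neighbour miR-206-3p, found mainly in skeletal muscle, had 1479, 1863 and 2154 CPM in differentiated libraries, against 149, 76.4 and 88.1 CPM in undifferentiated libraries. The groups did not overlap (4.04 ± 0.30, adjusted p = 8.80e-06). miR-499-5p, the miRNA of Myh7b, had 250.2, 242 and 309 CPM in differentiated libraries and 0 reads in each undifferentiated library. It was at least 39.9-fold higher in differentiated cells (4.78 ± 0.25, adjusted p = 1.05e-06). miR-208b-3p, the miRNA of the slow myosin gene Myh7, had 59.4, 52.4 and 53.1 CPM in differentiated libraries and 0 reads in undifferentiated libraries. That made it at least 8.23-fold higher (2.70 ± 0.24, adjusted p = 2.28e-05). miR-486-5p, encoded in the Ank1 gene and enriched in muscle, had 29137, 31149 and 27903 CPM in differentiated libraries, against 3407, 2151 and 2296 CPM in undifferentiated libraries. It rose by 3.51 ± 0.25 (adjusted p = 7.23e-06), and miR-3107-5p, the same mature RNA under another name, by 3.52 ± 0.25, so the pair is 1 molecule whose reads are split.

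Of the other arms of the myomiR hairpins 2 were tested. miR-486-3p had 309.6, 339 and 292.1 CPM in differentiated libraries, against 55.8, 71.0 and 37.6 CPM in undifferentiated libraries, and it rose by 2.35 ± 0.28 (adjusted p = 0.00012). miR-133b-5p stood at 1.00 ± 0.42 and did not pass (adjusted p = 0.0639), with undifferentiated library A, at 50.5 CPM, above 2 of the 3 differentiated libraries.

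**Figure D3:**
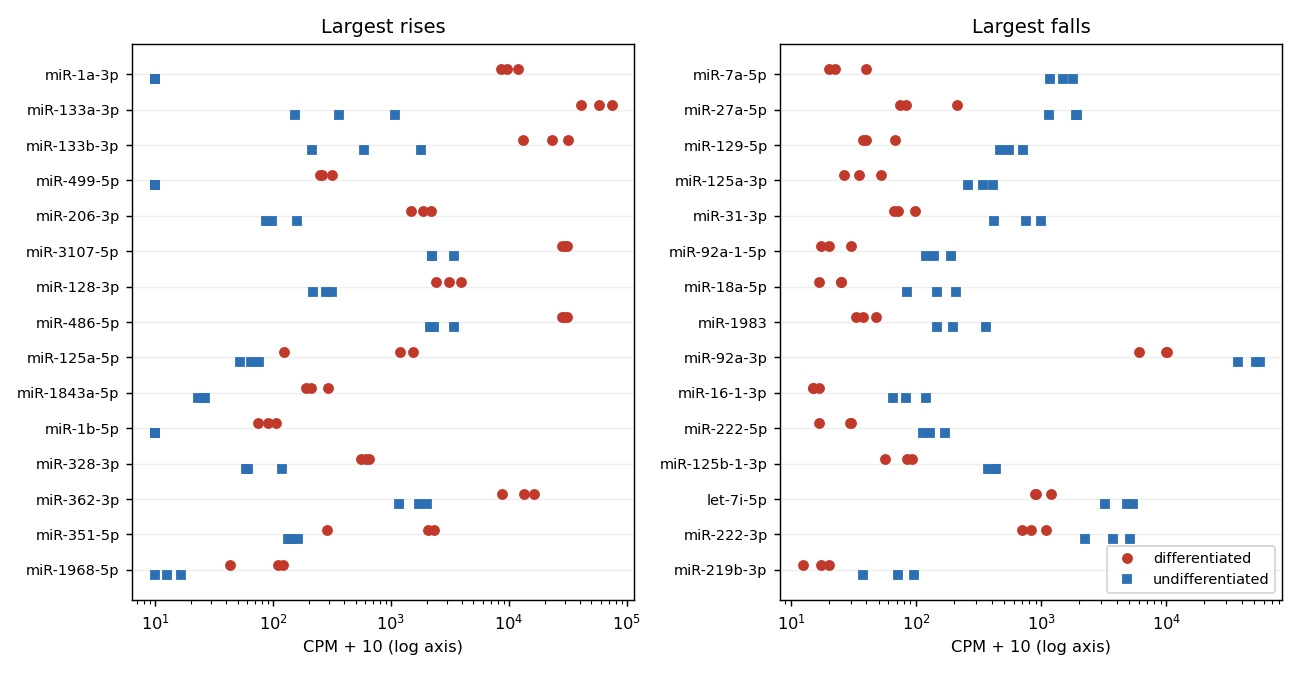
Level in CPM + 10 (x axis, log axis) of the names with the largest rises (left panel) and falls (right panel) in each of the 3 differentiated and 3 undifferentiated libraries, each point 1 library. The spread within a state is widest for miR-133a-3p and miR-133b-3p in undifferentiated cells and for miR-125a-5p and miR-351-5p in differentiated cells.

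Some names were read in 1 state only. Those tested passed the filter through differentiated libraries alone, so their p-values carry the limit given for miR-1a-3p. Besides miR-1a-3p, miR-499-5p and miR-208b-3p, the names with at least 20 reads in differentiated libraries and 0 in undifferentiated libraries were miR-1b-5p, miR-335-5p and miR-3076-5p. miR-1b-5p had 64.4, 79.8 and 96.3 CPM in differentiated libraries and was at least 12.0-fold higher there (3.16 ± 0.26, adjusted p = 1.37e-05). It is complementary to miR-1a-3p, and since the sources used here do not say how strand was handled, it may be no molecule of its own. miR-335-5p, encoded within the imprinted gene Mest, had 47.1, 44.9 and 66.4 CPM in differentiated libraries and was at least 7.90-fold higher there (2.63 ± 0.26, adjusted p = 4.70e-05). miR-3076-5p, at 24.1 ± 14.2 CPM in differentiated libraries, was below the filter of the test and at least 3.60-fold higher by its reads. In the other direction only miR-29b-1-5p met the same count, with 0 reads in differentiated libraries and 15.9 ± 6.94 CPM in undifferentiated libraries. It was at least 1.92-fold lower in differentiated cells and was not tested.

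Outside the myomiRs, the largest rises included miRNAs known from brain, heart and several tissues. miR-128-3p, encoded within R3hdm1 and Arpp21 and best known from brain, had 2418, 3083 and 3874 CPM in differentiated libraries, against 271, 207 and 308 CPM in undifferentiated libraries (3.52 ± 0.28, adjusted p = 1.14e-05). miR-1843a-5p had 180.8, 282 and 199.2 CPM in differentiated libraries, against 15.9, 16.4 and 12.95 CPM in undifferentiated libraries (3.178 ± 0.28, adjusted p = 1.89e-05). Neither had overlapping groups. miR-328-3p averaged 602 ± 47.9 CPM in differentiated cells and 70.0 ± 33.8 CPM in undifferentiated cells (SD, n = 3 each), a rise of 3.01 ± 0.32. miR-362-3p, of the X-linked cluster within Clcn5, averaged 12804 ± 3780.2 CPM in differentiated cells and 1619 ± 426 CPM in undifferentiated cells, a rise of 2.97 ± 0.31. miR-1968-5p rose by 2.70 ± 0.41, with 0 to 6.48 CPM in undifferentiated libraries.

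A pair of large rises rested on 2 of the 3 differentiated libraries. miR-125a-5p had 1174, 1531 and 113 CPM in differentiated libraries A, B and C, against 66.4, 54.6 and 42.7 CPM in undifferentiated libraries (3.25 ± 0.79, adjusted p = 0.00637). Without differentiated library C the change was 4.40, and without B it was 2.58. miR-351-5p, which has the same seed, had 2046, 2319.5 and 276 CPM in differentiated libraries, against 154.1, 123 and 128.2 CPM in undifferentiated libraries (2.94 ± 0.68, adjusted p = 0.00474), and was 3.92 without differentiated library C. In both names differentiated library C was low and still above every undifferentiated library.

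Of all names miR-7a-5p fell most, a miRNA encoded in part within Hnrnpk and best known from neuroendocrine tissues. It had 12.4, 29.9 and 9.96 CPM in differentiated libraries, against 1480.3, 1171 and 1796 CPM in undifferentiated libraries, and fell by 5.81 on the log2 scale (SE 0.33, adjusted p = 1.34e-06). miR-27a-5p, the arm of miR-27a that is usually discarded, had 64.4, 202 and 73.0 CPM in differentiated libraries, against 1145, 1927 and 1889 CPM in undifferentiated libraries (-3.89 ± 0.42, adjusted p = 6.54e-05). In miR-129-5p, a miRNA of neural tissue, the values were 27.2, 57.4 and 29.9 CPM in differentiated libraries, against 459.8, 538 and 701 CPM in undifferentiated libraries (-3.61 ± 0.32, adjusted p = 1.92e-05). No differentiated library reached the lowest undifferentiated one in any of these 3 names.

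The other large falls included those of miR-125a-3p (-3.19 ± 0.33), miR-31-3p (-3.13 ± 0.35), miR-92a-1-5p (-2.75 ± 0.32), miR-16-1-3p (-2.48 ± 0.29), miR-222-5p (-2.47 ± 0.32) and miR-125b-1-3p (-2.44 ± 0.28). miR-31-3p had 61.9, 87.3 and 56.4 CPM in differentiated libraries, against 744, 407 and 986 CPM in undifferentiated libraries. Its other arm miR-31-5p, known to hold back Myf5 in quiescent satellite cells, averaged 1745 ± 134.2 CPM in differentiated cells and 5501 ± 1118 CPM in undifferentiated cells (SD, n = 3 each) and fell by 1.63 on the log2 scale (adjusted p = 0.00053). miR-1983 (-2.49 ± 0.36) and miR-219b-3p (-1.96 ± 0.38) were also among the 15 largest falls.

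Among names of the miR-17/92 cluster and the related clusters, which promote proliferation, 6 of 10 tested names fell and 1 rose, with a median of -0.99 beside -0.06 over all names. Over all names 28.6% fell and 29.9% rose. With the deposited scaling 9 fell and 1 rose, where 45.5% of all names fell. The falls numbered 4 without differentiated library B and 4 without differentiated library C. miR-92a-3p, the most abundant of them, had 9915, 10169 and 6045 CPM in differentiated libraries, against 37473, 52064 and 55520.1 CPM in undifferentiated libraries (-2.49 ± 0.29, adjusted p = 0.000103). miR-18a-5p averaged 12.2 ± 4.78 CPM in differentiated cells and 136.2 ± 62.9 CPM in undifferentiated cells (SD, n = 3 each) and fell by 2.65 on the log2 scale. miR-17-5p and miR-20a-5p, which share a seed, were at -1.95 ± 0.34 and -1.96 ± 0.33. miR-19b-3p, with hairpins in the same cluster and in the X-linked paralog cluster, was at -0.35 ± 0.28 and did not pass (adjusted p = 0.287). miR-363-3p of the X-linked paralog cluster was the one that rose (1.66 ± 0.27).

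The let-7 family is known for rising in many tissues as cells differentiate. Of its 10 tested names 3 fell and 0 rose, with a median of -0.51, beside 28.6% of all names that fell and 29.9% that rose, so its share of falls was near the background. The count is not stable, with 7 falls under the deposited scaling, 7 without undifferentiated library A, and 1 or 2 without any one of the other libraries. let-7i-5p is the clear case, with 879, 1185 and 899.6 CPM in differentiated libraries, against 3199.8, 5405 and 4814 CPM in undifferentiated libraries (-2.15 ± 0.28, adjusted p = 0.000184). miR-98-5p (-0.78 ± 0.25, adjusted p = 0.0248) and let-7e-5p (-0.71 ± 0.27, adjusted p = 0.0484) were close to the threshold, and let-7e-5p lost its call in 5 of the 6 fits that left out 1 library. let-7f-5p, the most abundant of them, averaged 33538 ± 3819.8 CPM in differentiated cells and 54832 ± 15049 CPM in undifferentiated cells (SD, n = 3 each), and did not pass (-0.67 ± 0.27, adjusted p = 0.0578).

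All 3 tested names of miR-221 and miR-222, known repressors of the cell cycle inhibitor p27, fell under each of the 6 scalings and tests. Over all names 27.2% fell in all 6. miR-221-3p had 4434, 5273 and 3229.8 CPM in differentiated libraries, against 10471, 16578 and 17356 CPM in undifferentiated libraries (-1.77 ± 0.29, adjusted p = 0.000759). miR-222-3p fell by 2.02 (SE 0.33) and miR-222-5p by 2.47 (SE 0.32), both on the log2 scale.

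All 5 tested names of miR-378 rose under each of the 6 scalings and tests, with a median of 1.94. Over all names 17.3% rose in all 6. How a read matching several of these names was counted is not known, so the 5 may not be independent. Besides miR-378a-3p, miR-378c (2.20 ± 0.27) averaged 955 ± 98.2 CPM in differentiated cells and 204 ± 51.4 CPM in undifferentiated cells (SD, n = 3 each). miR-378a-5p (1.94 ± 0.30), the other arm of miR-378a, miR-378b (1.73 ± 0.32) and miR-378d (1.70 ± 0.23) completed the list.

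Among 25 other tested miRNAs that have been linked to muscle differentiation, 10 rose and 6 fell, with a median of 0.30, beside 29.9% and 28.6% of all names. With the deposited scaling 6 rose and 9 fell, beside 17.3% and 45.5% of all names. The largest rises after miR-128-3p were those of miR-181a-5p, which represses Hoxa11, and miR-378a-3p. miR-181a-5p had 8194, 7539.8 and 6928 CPM in differentiated libraries, against 975, 1619 and 1796 CPM in undifferentiated libraries (2.40 ± 0.28, adjusted p = 0.000107). miR-26a-5p, a repressor of the histone methyltransferase Ezh2, averaged 9723 ± 539.1 CPM in differentiated cells and 2637 ± 407 CPM in undifferentiated cells (SD, n = 3 each) and rose by 1.89 ± 0.23. miR-24-3p, which is made from both the miR-23a and the miR-23b cluster, rose by 1.17 ± 0.27 (adjusted p = 0.00489) and was at 0.50 with the deposited scaling, where it did not pass. The falls included miR-186-5p (-1.19 ± 0.31), miR-214-3p (-1.17 ± 0.31) and miR-125b-5p (-0.86 ± 0.26), beside miR-31-5p, miR-221-3p and miR-222-3p.

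In 2 X-linked clusters most tested names rose, beside 29.9% of all names (17.3% with the deposited scaling). In the Clcn5 cluster 6 of 8 rose and 0 fell, with a median of 1.19, and with the deposited scaling 4 rose and 1 fell. Without differentiated library B also 4 rose. Besides miR-362-3p, miR-501-3p (2.34 ± 0.35) and miR-500-3p (1.75 ± 0.31) rose, while miR-532-3p, at -0.17 ± 0.26, did not pass. In the cluster of miR-322 and miR-503, known to promote exit from the cell cycle through Cdc25a, 4 of 6 rose and 1 fell, and with the deposited scaling 2 rose and 1 fell. miR-503 itself was not tested, with 2 reads of its 5p arm in differentiated and 5 in undifferentiated libraries, and 6 and 9 of its 3p arm. Among the 4 rises was that of miR-351-5p, which rested largely on differentiated libraries A and B. miR-322-5p, whose seed is that of the miR-15/16 family, rose by 1.54 ± 0.29 (adjusted p = 0.00158). In that family it was the only one of 4 tested names to rise, and miR-16-5p was at -0.56 ± 0.24 (adjusted p = 0.0715).

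**Figure D4:**
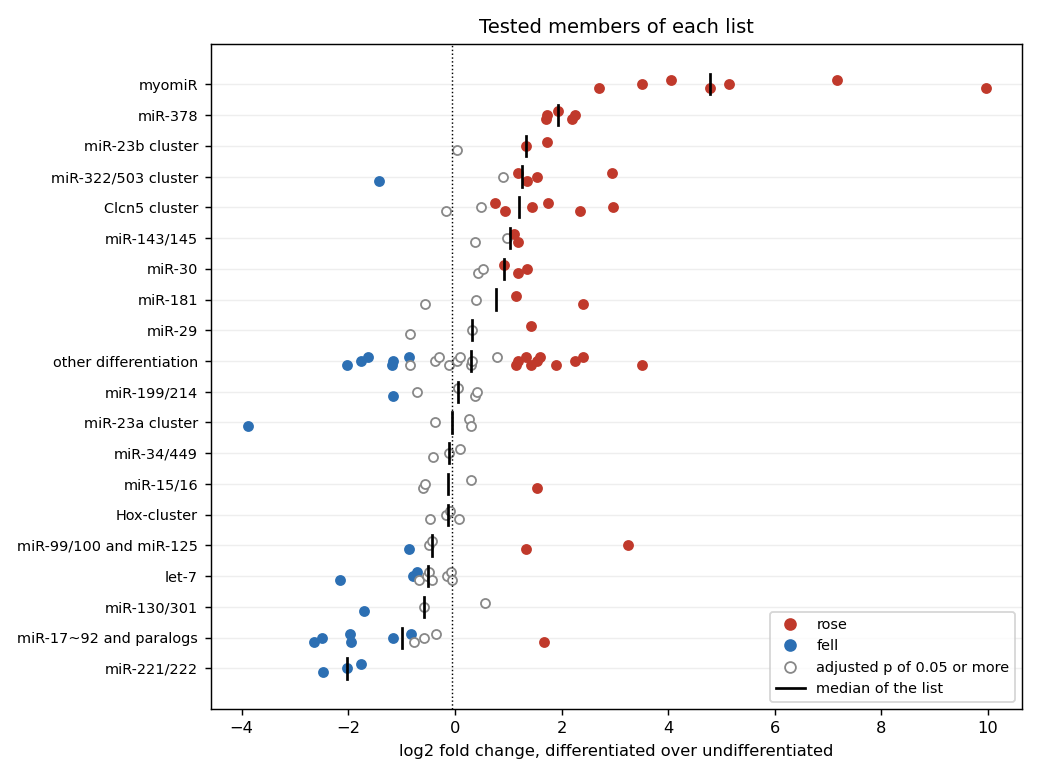
Log2 fold change of differentiated over undifferentiated input (x axis) of every tested member of each list (y axis), each point 1 name, filled where it passed the test. The dotted line is the median of all names tested, -0.06; every tested myomiR lies at 2.70 or above and all 5 miR-378 names at 1.70 or above.

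The other lists are given with their counts under both scalings. Over all names 29.9% rose and 28.6% fell, and with the deposited scaling 17.3% rose and 45.5% fell. Several of the counts of these short lists are near those shares. In miR-30, 3 of 5 rose and with the deposited scaling 0 did; miR-30d-5p was at 1.35 ± 0.27 and miR-30b-5p at 1.18 ± 0.31. The miR-30 count was 2 without differentiated library A, without differentiated library B and without undifferentiated library B. In miR-143 and miR-145, miRNAs abundant in smooth muscle, 2 of 4 rose and with the deposited scaling 0 did; miR-143-3p averaged 57188 ± 18792 CPM in differentiated cells and 24328 ± 2938 CPM in undifferentiated cells (SD, n = 3 each, 1.18 ± 0.30), and miR-145a-3p was at 1.11 ± 0.29. In miR-181, 2 of 4 rose, and with the deposited scaling 1 rose and 1 fell. Of 3 tested miR-29 names, which act on collagen genes, miR-29c-3p rose (1.43 ± 0.35) and did not pass with the deposited scaling (0.86). miR-29b-3p, at -0.83, did not pass (limma adjusted p = 0.0517). With the deposited scaling 0 of the 3 rose and 1 fell, and edgeR and DESeq2 each called 1 up and 1 down. Of the miR-23b cluster 2 of 3 rose, 1 of them with the deposited scaling, and of the miR-23a cluster 1 of 4 fell, 2 with the deposited scaling. In miR-26 1 of 2 rose, and with the deposited scaling 1 rose and 1 fell. In the list of miR-99, miR-100 and miR-125 2 of 5 rose and 1 fell, and with the deposited scaling 1 rose and 3 fell.

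In the list of miR-199 and miR-214, 1 of 5 fell, in that of miR-130 and miR-301 1 of 3 (miR-130b-3p, -1.71 ± 0.29), and in miR-34 and in the miRNAs of the Hox clusters 0 of 3 and 0 of 4 were called in either direction. With the deposited scaling those counts of falls were 2, 2, 1 and 3, where 45.5% of all names fell, against 28.6% in the main fit. In the list of miR-148 and miR-152 miR-152-3p (0.77 ± 0.26) rose and miR-148b-3p (-1.05 ± 0.30) fell. miR-152-3p kept its call in 1 of the 6 fits that left out 1 library, and did not pass with the deposited scaling (0.12, adjusted p = 0.755) or with library totals (0.61). miR-148b-3p lost its call without differentiated library B or C. Of 50 names of the imprinted Dlk1-Dio3 region only miR-154-5p had enough reads to be tested, at 0.68 ± 0.47 (adjusted p = 0.227).

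Names with the same seed moved in opposite directions in 2 of 11 seed families with at least 3 tested names. With the deposited scaling 4 families did, these 2 among them. In the CCCUGAG family shown above, miR-125a-5p and miR-351-5p rose while miR-125b-5p fell. miR-125b-5p had 161, 189.6 and 156 CPM in differentiated libraries, against 321.6, 259 and 369.1 CPM in undifferentiated libraries (-0.86 ± 0.26, adjusted p = 0.0177), a call that was lost without differentiated library A and without differentiated library C. In the AUUGCAC family, miR-363-3p had 131, 159.6 and 212 CPM in differentiated libraries, against 42.5, 46.4 and 46.6 CPM in undifferentiated libraries (1.66 ± 0.27, adjusted p = 0.000759). miR-92a-3p and miR-92b-3p fell, the second at -1.94 ± 0.42 (adjusted p = 0.00328). miR-25-3p, at -0.82 ± 0.27 (adjusted p = 0.0259), fell as well and lost its call without differentiated library B, without differentiated library C and without undifferentiated library B. miR-363-3p was far less abundant than miR-92a-3p in both states.

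Hairpins within 10000 bases of each other were grouped into clusters, and 5 of 19 clusters with at least 3 tested names held names called in both directions. With the deposited scaling 4 clusters did, 3 of them among these 5. In the cluster of miR-322 and miR-450, miR-322-5p, miR-322-3p (1.18 ± 0.24) and miR-450a-5p (1.36 ± 0.33) rose while miR-450b-5p fell (-1.43 ± 0.31). miR-450b-5p had 22.3, 20.0 and 16.6 CPM in differentiated libraries, against 95.7, 43.7 and 79.0 CPM in undifferentiated libraries. In the cluster of let-7e and miR-125a, miR-125a-5p rose while let-7e-5p, let-7e-3p (-1.60 ± 0.26) and miR-125a-3p fell. In the miR-23a cluster miR-27a-5p fell, while miR-24-3p, which has a second locus on chromosome 13, rose and miR-23a-3p (0.30 ± 0.23) and miR-27a-3p (-0.37 ± 0.27) did not pass. The remaining 2 were the cluster of miR-99a and let-7c and that of miR-363, miR-92a and miR-19b on the X chromosome. The fall in the X-linked cluster was that of miR-92a-3p, which also has a locus on chromosome 14, so its reads cannot be assigned to either cluster. Of 8 tested names with a hairpin in the miR-17/92 locus on chromosome 14, 7 fell, minor arms included, and 0 rose. The 8 include miR-92a-3p, which fell, and miR-19b-3p, which did not pass, and both also have a hairpin in the X-linked cluster. Over all names 28.6% fell.

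The 2 arms of a hairpin share their precursor, and their ratio within a library does not move with the scaling except through the pseudocount. Among 63 hairpins with both arms tested the log2 ratio of the 5p to the 3p arm changed in 24 (38.1%), in 15 (23.8%) towards 5p and in 9 (14.3%) towards 3p (limma, adjusted over the 63 hairpins). The 2 arms had log2 fold changes of the same sign in 51 hairpins. Both arms were called the same way in 18 and opposite ways in 4. Of the 24 changed ratios 17 moved towards the arm that was the more abundant one in undifferentiated cells and 7 away from it. With the more abundant arm taken over both states, 18 of the 24 moved towards it and 6 away. Over all 63 hairpins, called or not, 34 moved towards it. Many of the minor arms have few reads. With both arms at a mean of 50 CPM or more 12 ratios were called, but far fewer hairpins were tested there, so the lower count is not all lost calls. Over the 63 hairpins 12 were called without differentiated library A, 16 without differentiated library C and 14 without undifferentiated library C.

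The miR-125a hairpin changed most. Its 5p arm, given above, rose, while its 3p arm had 24.8, 42.4 and 16.6 CPM in differentiated libraries, against 332, 251 and 403 CPM in undifferentiated libraries. The log2 ratio of 5p to 3p was 4.06 ± 1.61 in differentiated cells and -2.38 ± 0.51 in undifferentiated cells (SD, n = 3 each), so that the more abundant arm was 5p in differentiated cells and 3p in undifferentiated cells. The change was 6.44 ± 0.72 (adjusted p = 0.000509), and 7.37 without differentiated library C. In miR-99a the 5p arm averaged 123 ± 29.4 CPM in differentiated cells and 42.9 ± 10.2 CPM in undifferentiated cells (SD, n = 3 each). Its 3p arm averaged 5.81 ± 3.81 CPM in differentiated cells and 43.9 ± 24.9 CPM in undifferentiated cells (SD, n = 3 each). Its ratio moved by 3.03 ± 0.36 towards 5p. miR-30b (2.88 ± 0.43) and miR-770 (2.59 ± 0.32) were the other hairpins whose arms were called in opposite directions. miR-3107, whose 5p arm shares its reads with miR-486-5p, was at 2.61 ± 0.30, and miR-296 at 1.76 ± 0.27. The miR-486 hairpin was at 1.16 ± 0.33, so the size depends on which 3p name is set against the shared 5p reads. miR-3107-3p had 56 reads in differentiated and 30 in undifferentiated libraries.

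Towards the 3p arm the largest changes were those of miR-133b and miR-27a. miR-133b moved by -4.13 ± 0.56 (adjusted p = 0.000847) and by -3.51 without undifferentiated library B. Its 3p arm, given above, rose, while its 5p arm, at 42.1, 89.8 and 46.5 CPM in differentiated libraries, against 50.5, 16.4 and 12.95 CPM in undifferentiated libraries, was not called. In miR-27a the 3p arm had 3215, 3078 and 3323 CPM in differentiated libraries, against 4701, 2956 and 5095 CPM in undifferentiated libraries, and did not pass, while the 5p arm fell. The ratio moved by -3.52 ± 0.52 (adjusted p = 0.00115), and the 3p arm was the more abundant in every library. miR-130a (-2.30 ± 0.38), miR-25 (-1.53 ± 0.30), miR-664 (-1.40 ± 0.33) and miR-27b (-1.30 ± 0.33) followed. The change of miR-25 was -0.10 with a pseudocount of 50 and did not pass there, miR-664 did not pass without differentiated library A, and miR-27b did not pass without differentiated library A or C. The mean log2 ratio changed sign between the 2 states in 3 of the 24 hairpins, miR-125a, miR-296 and miR-664. In miR-296 the arms were near equal in differentiated libraries A, B and C (0.27, 0 and -0.05). miR-664 was near equal in differentiated library B (-0.03).

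**Figure D5:**
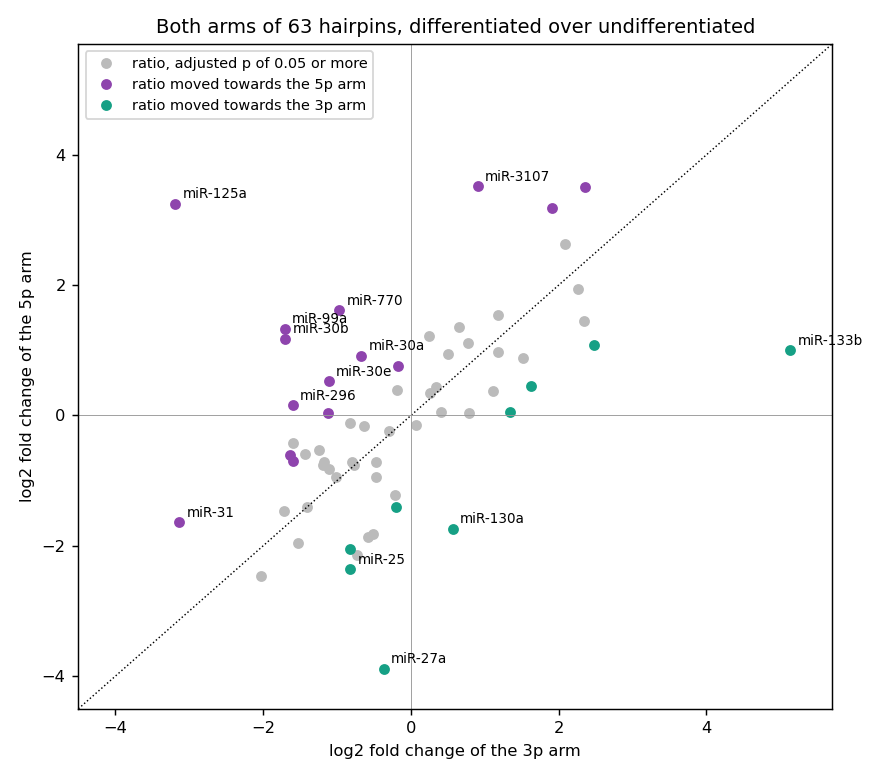
Log2 fold change of the 5p arm (y axis) against that of the 3p arm (x axis) for 63 hairpins, each point 1 hairpin, coloured by whether the ratio of the arms changed. miR-125a lies far above the diagonal, at 3.25 for 5p and -3.19 for 3p, and miR-133b and miR-27a lie far below it.

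Lists of markers of other cell types were read in the same libraries. The blood list had 24 reads over the 3 differentiated libraries and 58 over the 3 undifferentiated libraries and no tested name. Of these miR-155-5p held 18 in differentiated cells and 55 in undifferentiated cells, and miR-150-5p had 0 in every library. The liver marker miR-122-5p had 0 reads in differentiated libraries and 1 in undifferentiated libraries, and the pluripotent list had 20 reads in differentiated libraries and 11 in undifferentiated libraries. Of the epithelial list miR-200b-3p, miR-200c-3p and miR-429-3p had 0 reads, and only miR-205-5p was tested, at -0.07 ± 0.43. In differentiated and undifferentiated libraries miR-200a-3p had 5 and 0 reads, miR-141-3p 5 and 1, and miR-203-3p 0 and 1. In the neural list miR-124-3p and miR-137-3p, which mark neurons, had 0 reads in every library. Its 2 tested names both fell, miR-129-5p and miR-9-5p (-1.14 ± 0.28), and its summed level was 113 to 165 CPM in differentiated libraries and 651 to 944 CPM in undifferentiated libraries. Of its untested names miR-218-5p went the other way, with 14 reads in differentiated and 3 in undifferentiated libraries. miR-219a-5p had 6 and 54 reads and miR-9-3p 0 and 1, in the same order. The endothelial miR-126a had, for each arm, 0 reads in differentiated libraries and 1 in undifferentiated libraries. The summed level of the endothelial and smooth muscle list was 35809 to 70239.8 CPM in differentiated libraries and 21930.4 to 27627 CPM in undifferentiated libraries, nearly all of it miR-143-3p. Whether other cells contributed to the level of miR-143-3p was not tested.

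Names that rose, fell or were not called differed little in base composition. Their median GC content was 47.6%, 50% and 50% in that order, over the 72, 81 and 107 names with a sequence. A first base of U was found in 48.6%, 35.8% and 45.8% of them. X-linked names made up 13 of 72, 7 of 81 and 6 of 107, and these counts are a description, since names of 1 cluster share a transcript.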

How the data were processed

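Small RNA libraries were made with the TruSeq Small RNA kit from input RNA, per the labels' protocols, and read over 50 bases. Per the submitters' processing notes, the tools were Bowtie2 2.0.13, cutadapt 1.4.2, edgeR 3.18.1 and featureCounts 1.4.6, named without their roles. Their settings, the strand and how reads with several matching miRNAs were treated are not given in the sources. For each name and library the authors deposited a normalised signal in CPM. Its values are whole multiples of 1 read, and 100% gave whole reads within 0.01 read. The log2 fold changes and p-values of the authors' deposited table are theirs, per the file headers, and only counts of their calls are given.

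Recovered reads were scaled by library totals times the TMM factors of the 6 inputs alone, since the deposited factors also cover the eluates. These factors were 0.866 to 1.01 in differentiated and 0.897 to 1.28 in undifferentiated libraries. Names kept by filterByExpr were tested with limma 3.58.1 (trend, R 4.3.3) on log2(CPM + 10), two-sided, with Benjamini-Hochberg adjustment and a threshold of 0.05. Ratios of arms were tested with limma without trend. edgeR 4.0.16, DESeq2 1.42.0, the deposited scaling, RLE factors, library totals, pseudocounts of 1 and 50, no filter, a minimum mean of 50 CPM, a replicate block and leaving out each library were the alternatives. The fits were tested on simulated data. Python 3.11.15 made the tables and figures. No replicate pair was 1 library deposited again, with a chi-square of their reads, over its degrees of freedom, of at least 23.5.

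Named were the 15 largest rises and 15 largest falls that passed the test with no overlap of states and, in the higher one, 50 CPM or more on average, the 5 most abundant names of each state, names with at least 20 reads in 1 state and 0 in the other, the 6 largest changes of arm ratio each way, the tested myomiRs, 2 to 4 members of the other lists, and members of seed families or clusters called in opposite directions. The 30 lists come from general knowledge. The comparison, the lists, the scaling and the rules were chosen with earlier results of these data known.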

Additional observations from a re-analysis of the deposited data

How the results depend on the processing

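The deposited scaling moved the split of calls most, to 52 rises among 189 calls (27.5%), against 90 among 176 (51.1%). Every other scaling, test, pseudocount and filter kept the counts of names within 1.5 times. Leaving out 1 library gave 71 to 89 rises. Among ratios of arms, 24 were called, 15 towards 5p and 9 towards 3p. With a minimum mean of 50 CPM, where fewer hairpins were tested, there were 12, 9 and 3. With 1 library left out there were 12 to 25, 7 to 17 and 4 to 11. The difference in the share of the 10 most abundant names reversed to 7.81 points without miR-21a-5p, and was -8.48 to -6.17 with 1 library left out. That of myomiRs was 9.62 to 12.0 points. For the tested names and hairpins picked by the naming rules above, 2094 recomputed values kept direction and side of the threshold. Of the rest 72 lost the call, 62 gained it and 0 reversed. Many of these names were picked for large called changes in the same data, so this stability is partly built in. Over all tested names, 130 of the 176 called kept their call in every fit that left out 1 library. Deviations of columns with the same suffix had correlations of -0.20, 0.17 and -0.08, and those with unlike suffixes -0.19 to 0.28. With 3 libraries per state this cannot decide whether the suffix marks pairs. With it as a replicate block 91 names rose and 78 fell, and 20 ratios changed, 11 towards 5p and 9 towards 3p. The shallowest library had 294112 reads, which limits names near 1.30 to 3.32 CPM.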
